A study of Homo sapiens with 8 samples.

Results

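The 10 genes HSPA8, HSPA4, HSP90AA1, HSP90AB1, HSPB1, HSPH1, DNAJA1, DNAJB1, HSPD1 and BAG3 encode heat shock chaperones and cochaperones of the cytosol, with HSPD1 in mitochondria. They were followed in BOKU and SKG-I, cell lines from cervical cancer, after transfection with an siRNA against IGF2R (siIGF2R) or a control siRNA (siCtrl). A probe set, the group of short probes that reports 1 transcript region on the array, was taken as a member when the platform annotation paired it with 1 of these genes and no other. This gave 25 probe sets, and 21 of them were measured, meaning that at least 1 of the 8 arrays gave a signal of 500 or more. The measured probe sets covered 9 of the 10 genes, out of 8961 genes and 16517 of 54675 probe sets in the whole data. HSPA8, the constitutive HSP70, had no probe set of its own, because the 4 probe sets that carry its name are also annotated with 2 small nucleolar RNA genes, and it is not analysed here beyond its promoter.

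Heat shock chaperones keep other proteins folded and return misfolded ones to their native form or pass them on for breakdown. HSP70 proteins hold exposed stretches of a client in cycles of ATP use, J-domain proteins bring the client and start the cycle, and nucleotide exchange factors of the HSP110 and BAG families end it. HSP90 takes over later in folding and keeps kinases and steroid receptors ready for activation, small heat shock proteins hold unfolded clients without ATP, and HSP60 folds imported proteins inside a closed chamber in the mitochondrial matrix. Many of these genes are switched on by the transcription factor HSF1, which binds short repeats called heat shock elements.

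The 4 groups were BOKU with siIGF2R, BOKU with siCtrl, SKG-I with siIGF2R and SKG-I with siCtrl, all collected 72 h after lipofection in the same medium. Each group was 1 RNA sample hybridized to 2 arrays, so that the cell lines are the replicates of the siRNA effect and the 2 arrays of a group measure technical spread only. The siRNA sequence used for the arrays is not given in the sources used here, and with 1 RNA sample per group the loss of IGF2R and any other effect of that siRNA cannot be told apart.

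Levels are MAS5 signals, an intensity on a linear scale, and changes are differences of mean log2 signals, siIGF2R minus siCtrl. Every array had a trimmed mean of about 500, and 12302 to 13026 probe sets per array reached a signal of 500. Between the duplicate arrays of a group the difference in log2 signal had an SD of 0.27 to 0.35 over all measured probe sets. IGF2R itself, measured by the probe set 201393_s_at, fell by 3.65 on the log2 scale (SE 0.21, adjusted p = 0.0221 in limma), and 9.19% of its siCtrl signal was left in BOKU and 6.92% in SKG-I. Of 7 epithelial markers 5 were measured. KRT18, a keratin of simple epithelium, had mean signals of 10234 to 15238 over the 4 groups, while the basal keratin genes KRT5 and KRT14 had mean signals of 3.94 to 18.6. The mean signal of EPCAM reached the limit only in SKG-I, and that of CDH1 only in SKG-I with siIGF2R. KRT19 and CDH1 moved with the siRNA in SKG-I in opposite directions. The mean signal of KRT19 was 1954 with siIGF2R and 7122 with siCtrl, and that of CDH1 was 635 with siIGF2R and 158 with siCtrl. The part of these shifts in the chaperone values was not tested. None of 6 leukocyte and none of 5 endothelial markers was measured, and of 6 fibroblast markers COL1A1 was measured in both lines and COL3A1 reached the limit only in SKG-I, where its mean signal was 1508 with siIGF2R and 1989 with siCtrl.

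HSP90AA1, which encodes the inducible cytosolic HSP90, was the only member with any probe set called changed. All 4 of its probe sets had higher signals on both siIGF2R arrays than on both siCtrl arrays in each line, and 2 of the 4 passed the test. By the probe set 211968_s_at, the signal was 20086 and 21678 on the siIGF2R arrays of BOKU, against 12370 and 11162 on the siCtrl arrays. In SKG-I the same probe set gave 13374 and 12818 with siIGF2R, against 4710 and 4511 with siCtrl. These are changes of 1.78-fold in BOKU and 2.84-fold in SKG-I, and over both lines the rise was 1.17 on the log2 scale (SE 0.19, adjusted p = 0.0378 in limma). The probe set 210211_s_at gave 20037 and 24419 with siIGF2R in BOKU, against 15209 and 14997 with siCtrl, and 16390 and 14974 with siIGF2R in SKG-I, against 7784 and 8176 with siCtrl. Its rise of 0.76 on the log2 scale also passed the test (SE 0.15, adjusted p = 0.0495).

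The other 2 probe sets of HSP90AA1 missed the threshold. The probe set 211969_at, whose name carries no suffix for probes shared between transcripts, gave 21666 and 25780 with siIGF2R in BOKU, against 15359 and 14942 with siCtrl. In SKG-I it gave 16557 and 15581 with siIGF2R, against 5380 and 6360 with siCtrl, and its change over both lines was 1.05 (SE 0.21, adjusted p = 0.0521). The brightest probe set, 214328_s_at, gave 24900 and 35192 with siIGF2R in BOKU, against 21315 and 21506 with siCtrl, and 22156 and 20978 with siIGF2R in SKG-I, against 8624 and 11586 with siCtrl. Its change was 0.79 (SE 0.17, adjusted p = 0.0631). The calls depended on single arrays. None of the 4 probe sets was called without the siCtrl array 2 of BOKU, 1 was called without the siCtrl array 1 or the siIGF2R array 1 of SKG-I, and all 4 were called without the siCtrl array 1 of BOKU.

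**Figure D1:**
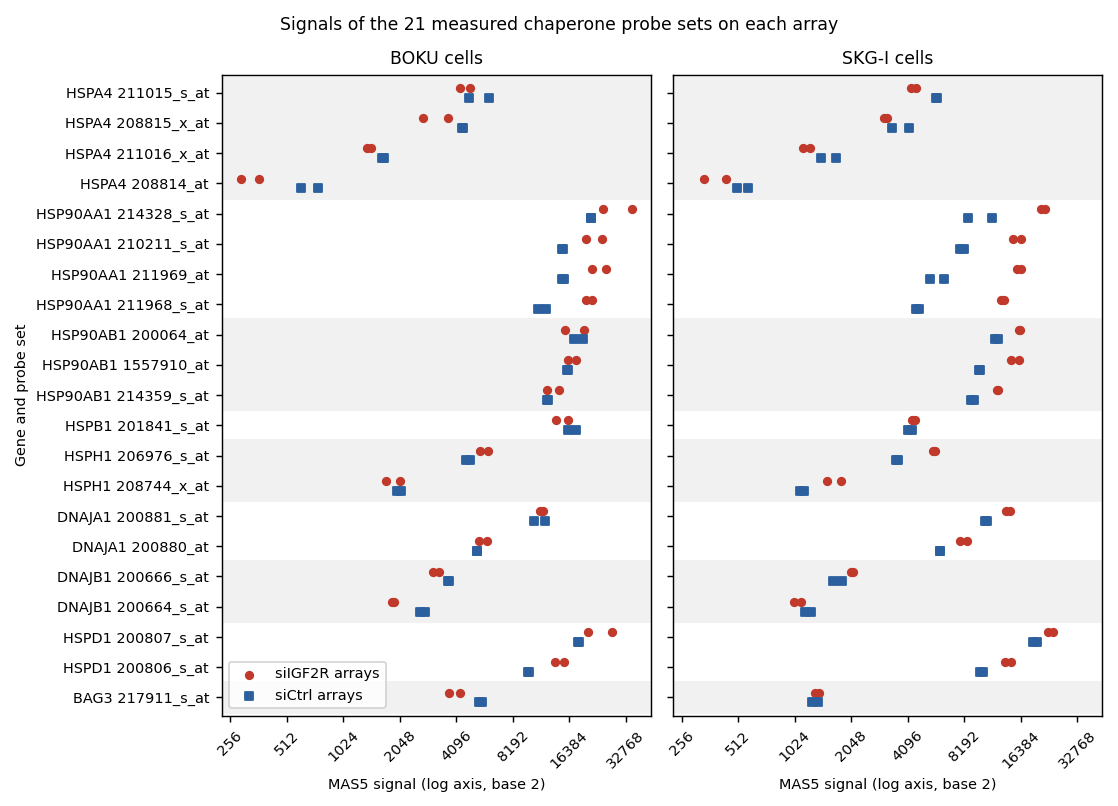
MAS5 signals (x axis, log scale to base 2) of the 21 measured chaperone probe sets (y axis, shaded by gene) on each array of BOKU and SKG-I; circles are siIGF2R arrays and squares siCtrl arrays. The siIGF2R arrays lie to the right of the siCtrl arrays for all 4 HSP90AA1 probe sets in both lines, and BAG3 and HSPB1 lie further right in BOKU than in SKG-I.

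HSP90AB1, which encodes the constitutive cytosolic HSP90, had smaller changes and passed no test. Its brightest probe set, 200064_at, gave 15549 and 19678 with siIGF2R in BOKU, against 17384 and 19457 with siCtrl, so that the arrays of the groups overlapped. In SKG-I it gave 16217 and 15984 with siIGF2R, against 11920 and 12345 with siCtrl, with every siIGF2R array above the siCtrl arrays. Over both lines the change was 0.17 (SE 0.15, adjusted p = 0.508). The other probe sets of the gene, 1557910_at and 214359_s_at, had log2 values of the change of 0.09 and 0.08 in BOKU and of 0.62 and 0.44 in SKG-I, with adjusted p = 0.218 and 0.289.

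HSPD1, which encodes the mitochondrial chaperonin HSP60, was the only other member whose measured probe sets had all siIGF2R arrays above all siCtrl arrays in each line. The probe set 200806_s_at gave 13738 and 15282 with siIGF2R in BOKU, against 9881 and 10057 with siCtrl, and 14504 and 13467 with siIGF2R in SKG-I, against 9921 and 10375 with siCtrl. The change was 1.45-fold in BOKU and 1.38-fold in SKG-I, and 0.50 on the log2 scale over both lines (SE 0.12, adjusted p = 0.0767). The brightest probe set, 200807_s_at, gave 20633 and 27854 with siIGF2R in BOKU, against 18529 and 18233 with siCtrl, and 24239 and 23041 with siIGF2R in SKG-I, against 19103 and 19955 with siCtrl (change 0.33, SE 0.11, adjusted p = 0.122). No alternative processing that kept the duplicates as 1 sample called either probe set, and the lowest adjusted p for 200806_s_at among them was 0.0525. The remaining 3 probe sets of HSPD1 stayed under a signal of 100 on every array and were not tested.

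The nucleotide exchange factors of the HSP110 family, HSPH1 and HSPA4, had fitted changes of opposite sign. HSPH1, whose product is also known as HSP105, gave 5504 and 6013 by its brightest probe set, 206976_s_at, with siIGF2R in BOKU, against 4866 and 4625 with siCtrl. In SKG-I it gave 5573 and 5720 with siIGF2R, against 3634 and 3534 with siCtrl, and the change over both lines was 0.47 (SE 0.17, adjusted p = 0.161). The second probe set, 208744_x_at, had a change of -0.11 and overlapping arrays in BOKU and a change of 0.57 with no overlap in SKG-I. A further HSPH1 probe set, 235573_at, stayed between 126 and 271 on all arrays and was not tested.

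HSPA4 had negative changes by all 4 of its probe sets in both lines, and none passed the test. By its brightest probe set, 211015_s_at, the signal was 4837 and 4303 with siIGF2R in BOKU, against 6122 and 4798 with siCtrl, so that the arrays overlapped. In SKG-I it was 4546 and 4258 with siIGF2R, against 5765 and 5852 with siCtrl, and the change over both lines was -0.32 (SE 0.16, adjusted p = 0.243). The dimmest probe set, 208814_at, gave 366 and 292 with siIGF2R in BOKU, against 607 and 751 with siCtrl, and 439 and 338 with siIGF2R in SKG-I, against 501 and 575 with siCtrl. Its change of -0.76 was the lowest among the members (SE 0.27, adjusted p = 0.152). For 208814_at, 208815_x_at and 211016_x_at all siIGF2R arrays lay below all siCtrl arrays in each line, and the fitted values of the last 2 were -0.38 and -0.31.

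The J-domain genes DNAJA1 and DNAJB1 encode the main partners that start the ATP cycle of HSP70 in the cytosol. The brightest DNAJA1 probe set, 200881_s_at, gave 11813 and 11412 with siIGF2R in BOKU, against 12108 and 10595 with siCtrl, and 13760 and 14440 with siIGF2R in SKG-I, against 10784 and 10590 with siCtrl. The arrays overlapped in BOKU and were apart in SKG-I, and the changes over both lines were 0.22 for this probe set (SE 0.14, adjusted p = 0.373) and 0.26 for 200880_at (SE 0.16, adjusted p = 0.347). DNAJB1 gave 3314 and 3076 by the probe set 200666_s_at with siIGF2R in BOKU, against 3752 and 3708 with siCtrl. In SKG-I it gave 2089 and 2052 with siIGF2R, against 1835 and 1633 with siCtrl, so that the siIGF2R arrays were lower in BOKU and higher in SKG-I. Its second probe set, 200664_s_at, was lower with siIGF2R on every array in both lines, with a change of -0.36 (SE 0.20, adjusted p = 0.311).

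HSPB1 and BAG3 work on misfolded proteins, HSPB1 as the small heat shock protein HSP27 and BAG3 as the cochaperone that links HSP70 and small heat shock proteins to selective autophagy. Each had 1 probe set. HSPB1 gave 13860 and 16116 with siIGF2R in BOKU, against 16080 and 17718 with siCtrl, and 4325 and 4460 with siIGF2R in SKG-I, against 4109 and 4313 with siCtrl. The arrays overlapped in BOKU and were apart in SKG-I, and the change over both lines was -0.06 (SE 0.14, adjusted p = 0.823), or 0.036 after quantile normalization. BAG3 gave 4310 and 3732 with siIGF2R in BOKU, against 5604 and 5442 with siCtrl, a change of -0.46. In SKG-I it gave 1314 and 1384 with siIGF2R, against 1273 and 1364 with siCtrl, a change of 0.03 with overlapping arrays. Over both lines the BAG3 change was -0.21 (SE 0.20, adjusted p = 0.538).

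**Figure D2:**
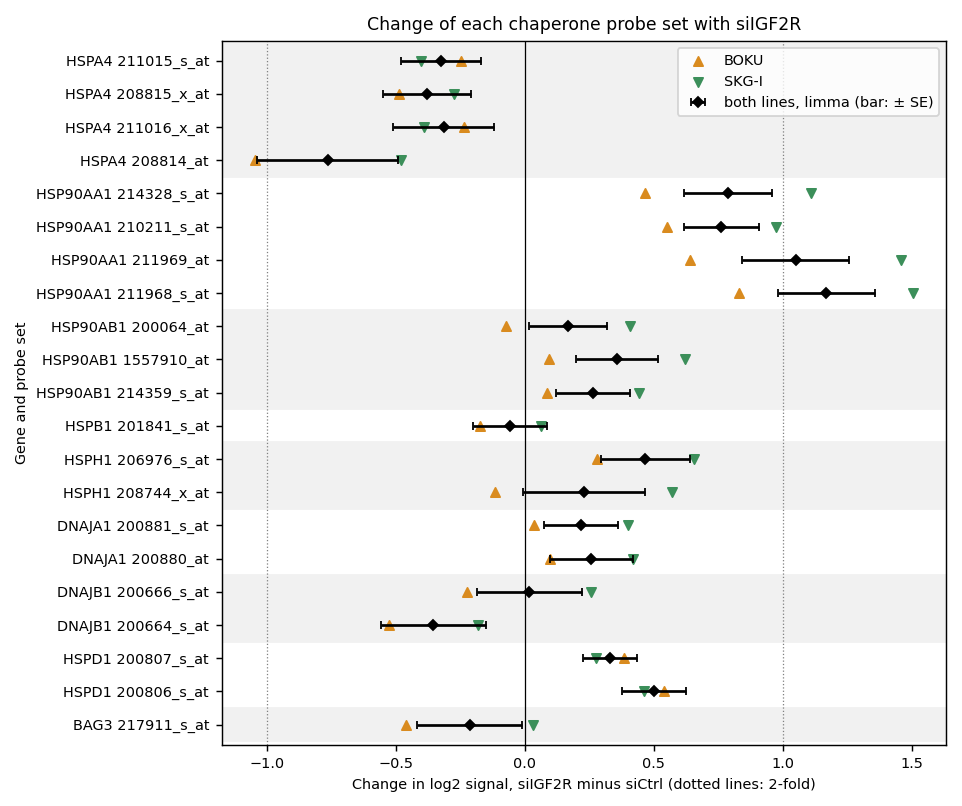
Change in log2 signal, siIGF2R minus siCtrl (x axis, dotted lines at 2-fold), of each measured chaperone probe set (y axis); diamonds are the limma estimate over both lines with bars of 1 SE, and triangles are the changes in BOKU (pointing up) and in SKG-I (pointing down). HSP90AA1 has the highest values, up to 0.83 in BOKU and 1.51 in SKG-I, and the HSPA4 probe sets lie below 0 in both lines.

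Counted over the members, 2 of 21 probe sets were called higher by limma, both of HSP90AA1, beside 2.2% of all measured probe sets, and 0 were called lower, beside 2.09%. At an unadjusted p under 0.05 the members had 7 higher and 1 lower, beside 14.1% and 12.9% of all probe sets. With all siIGF2R arrays above all siCtrl arrays in each line, 9 of 21 member probe sets were counted, beside 26.4%, and with all below, 4 of 21, beside 23.6%. No member passed 2-fold in each line, where 3.15% of all probe sets were higher and 2.28% lower. In BOKU alone 0 members were 2-fold higher (7.51% of all) and 1 was 2-fold lower (4.92% of all), HSPA4 by 208814_at. That probe set was measured only through its siCtrl arrays, which favours a fall. In SKG-I alone 3 were 2-fold higher (8.62% of all), all of HSP90AA1, and 0 were 2-fold lower (6.33% of all). The members' median change was 0.23 over both lines, beside 0.02 over all measured probe sets. Read by the brightest probe set of each gene, 0 of the 9 measured members were called by limma. Of all genes read in this way 2.59% were called higher and 2.35% lower. Probe sets of 1 gene read the same RNA, so that the 4 of HSP90AA1 are no independent count. Those with the suffix _s_at or _x_at can also match other transcripts, and HSP90AA1, HSP90AB1 and HSPD1 have processed copies elsewhere in the genome, so that which copy gave the signal is uncertain.

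Most member probe sets had a higher change in SKG-I than in BOKU. The median change of the 21 probe sets was 0.04 in BOKU and 0.41 in SKG-I, while over all probe sets the median was 0.03 in BOKU and -0.0027 in SKG-I. For 17 of 21 probe sets the change in SKG-I was the more positive one, against 46.1% of all measured probe sets, and the exceptions were both HSPD1 probe sets and 2 of HSPA4. As BOKU minus SKG-I, the changes of the HSP90AA1 probe sets differed by -0.82 to -0.42 on the log2 scale. With 1 RNA sample per line and siRNA this difference could not be tested. The members are bright, with 12 of 21 in the brightest of 10 equal classes of mean signal, and the median change of that class was -0.11 in BOKU and -0.10 in SKG-I.

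**Figure D3:**
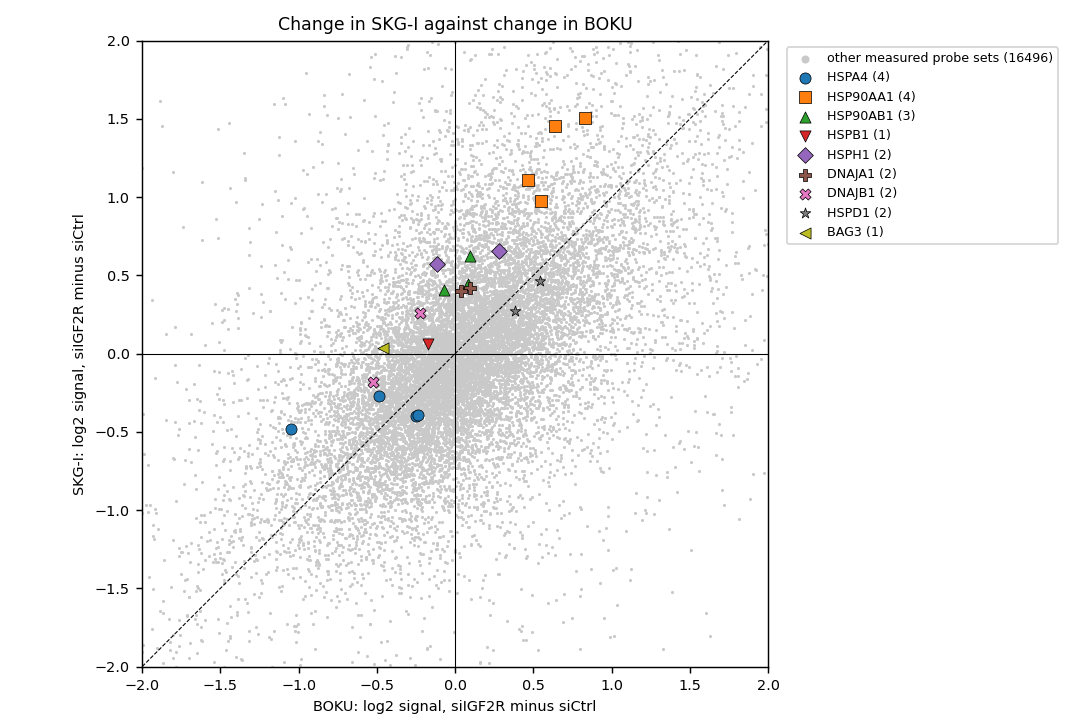
Change in log2 signal with siIGF2R in SKG-I (y axis) against that in BOKU (x axis) for all measured probe sets, with the 21 chaperone probe sets marked by gene (number of probe sets in brackets) and the other 16496 in grey; 630 probe sets lie outside the plotted range of 2 on either side. The members lie above the dashed line of equal change except for both HSPD1 probe sets and 2 HSPA4 probe sets.

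The cell lines themselves differed in the level of some members. Over both siRNAs, 8 of 21 member probe sets were called higher in BOKU than in SKG-I by limma, beside 22.3% of all measured probe sets, and 0 were called lower, beside 23.2%. The 8 probe sets belong to HSPB1, BAG3, DNAJB1 and HSP90AA1, and all 8 were called on leaving out any single array. By the brightest probe set of each gene, 4 of 9 members were called higher in BOKU and 0 lower, beside 21.9% and 24.1% of all genes. Among the 108 measured genes of the wider chaperone lists described below, 22 were called higher in BOKU and 18 lower. HSPB1 had mean signals of 14945 with siIGF2R and 16879 with siCtrl in BOKU, and of 4392 with siIGF2R and 4210 with siCtrl in SKG-I, a difference of 3.69-fold over both siRNAs (log2 1.89, SE 0.14, adjusted p = 0.00081). BAG3 had mean signals of 4010 with siIGF2R and 5522 with siCtrl in BOKU, and of 1349 with siIGF2R and 1318 with siCtrl in SKG-I, a difference of 3.53-fold (log2 1.82, SE 0.20, adjusted p = 0.00226). DNAJB1 was 1.82-fold and 1.99-fold higher in BOKU by its 2 probe sets (adjusted p = 0.0185 and 0.0122), and the log2 differences of the HSP90AA1 probe sets ran from 0.71 to 1.01 (adjusted p = 0.00933 to 0.015). In these bulk RNA samples, fewer cells that express a gene and less RNA per cell cannot be told apart.

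In the siCtrl samples, taken as a description, HSP90AA1 was 1.89-fold to 2.59-fold higher in BOKU than in SKG-I, HSPB1 4.01-fold, BAG3 4.19-fold and DNAJB1 2.15-fold and 2.25-fold. The probe sets of HSPD1 were within 0.09 of each other on the log2 scale between the lines, and those of HSPA4 within 0.33. With siIGF2R the gap for HSP90AA1 was 1.37-fold to 1.59-fold. The siCtrl level was higher in BOKU for 17 of 21 probe sets, against 47.9% of all, and in 16 of these the gap was smaller with siIGF2R, beside 61.3% of all probe sets with a higher siCtrl level in BOKU. Choosing probe sets by a high siCtrl gap by itself favours a smaller gap with siIGF2R, so that nothing is read from this count.

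**Figure D4:**
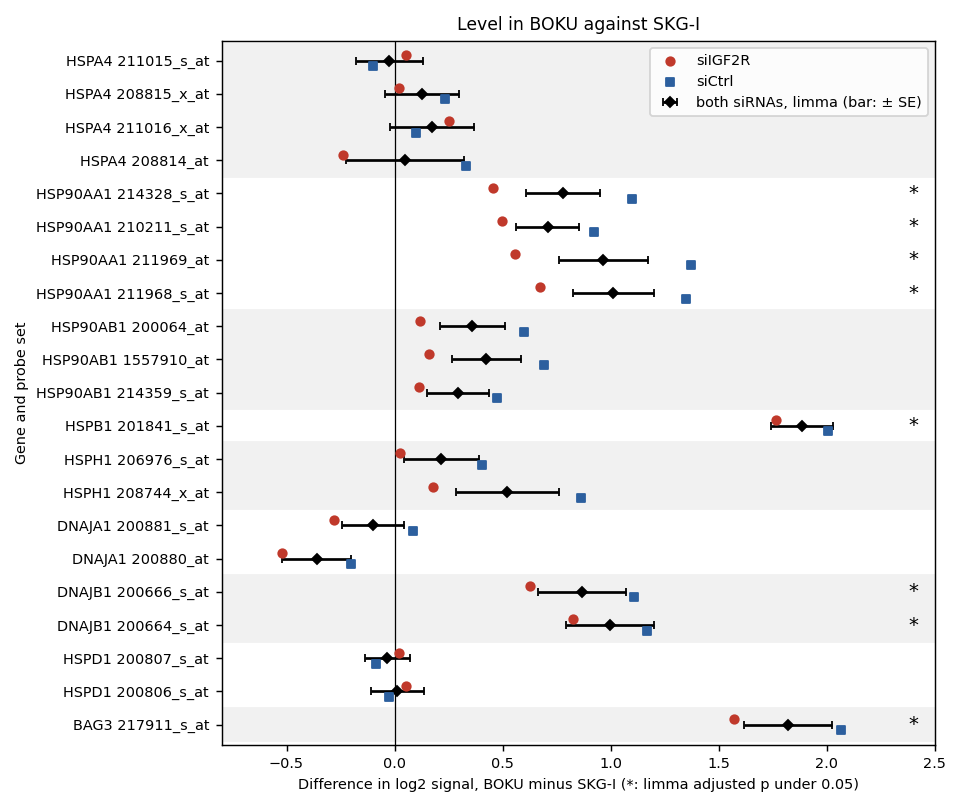
Difference in log2 signal, BOKU minus SKG-I (x axis), for each measured chaperone probe set (y axis); circles are the siIGF2R samples, squares the siCtrl samples, diamonds the limma estimate over both siRNAs with bars of 1 SE, and stars mark an adjusted p under 0.05. HSPB1 and BAG3 have the highest differences, 1.89 and 1.82, and HSPD1 lies near 0.

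The promoters of the members were read for heat shock elements, since these are the letters that HSF1 is known to bind. The RefSeq table for GRCh38.p14 holds 16 windows for the 10 genes, each from 250 bases before to 50 bases after a transcript start. The letters GAANNTTC, the pair of inverted units that reads the same on both strands, were found in 8 of the 16 windows and in 6.77% of all 35116 windows. Searched with 1 more inverted unit 2 bases further on either side, which overlaps the pair, the element was found in 5 of 16 windows and in 0.49% of all windows. The 5 windows belong to HSPA8, HSP90AA1, HSP90AB1, DNAJA1 and HSPD1, while HSPB1 and DNAJB1 held only the pair, and HSPA4, HSPH1 and BAG3 held neither in these windows. A match is a description of the letters and not a bound site. Positions count from the transcript start of the window with the element, at 102087044 for HSP90AA1, 44247943 for HSP90AB1 and 197499840 for HSPD1. These genes begin further upstream, at 102139749, 44246194 and 197500274, so that their elements lie inside the annotated genes. The windows of their other starts held no such element. The elements of the measured genes are shown for comparison, 5′ to 3′ on the strand of the gene, with the units in capitals.
HSP90AA1 (chr14:102087112-102087139, minus strand, first unit at -88 from the start): agggttcTTCcgGAAggTTCgggaggct
HSP90AB1 (chr6:44247771-44247798, plus strand, first unit at -165): gagcaggTTCtgGAAgaTTCatgggctc
HSP90AB1 (chr6:44247824-44247851, plus strand, first unit at -112): gagattgTTCtgGAAgcTTCtggattct
DNAJA1 (chr9:33025269-33025296, plus strand, first unit at 4 after the start): ccgggcgGAActTTCcaGAAcgctcggt
HSPD1 (chr2:197500063-197500090, minus strand, first unit at -245): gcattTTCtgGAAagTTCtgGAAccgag

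HSP90AA1, HSP90AB1 and HSPD1 share the arrangement that starts with TTC, DNAJA1 has the one that starts with GAA, and the HSPD1 stretch holds 4 units in a row. HSP90AA1, with 1 element, had the highest change of the members. HSP90AB1, with 2 elements, passed no test, and neither did DNAJA1 and HSPD1, with 1 element each. A relation between the elements and the changes was not tested, and neither was a part of HSF1 in them. HSF1 itself, by its brightest probe set 202344_at, had signals of 775 and 693 with siIGF2R in BOKU, against 722 and 674 with siCtrl, and 858 and 670 with siIGF2R in SKG-I, against 861 and 590 with siCtrl. The arrays overlapped in both lines, and the change, whose sign turned on leaving out single arrays, was 0.08 (SE 0.21, adjusted p = 0.836).

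The wider chaperone system was described by 10 lists with 134 genes, of which 108 were measured, each by its brightest probe set. HSP90AA1 thus enters the lists by 214328_s_at, which missed the threshold (adjusted p = 0.0631 in limma), and not by its called probe sets. With siIGF2R 1 of these genes was called higher by limma and 2 lower, beside 2.59% and 2.35% of all 8961 genes, and the median change of the listed genes was -0.06, beside 0.0063 over all genes. Of 26 measured heat-inducible genes 0 were called higher and 1 lower. At an unadjusted p under 0.05 this list had 5 higher, HSP90AA1, CHORDC1, STIP1, HSPH1 and HSPD1, and 4 lower, HSPB8, CRYAB, MRPL18 and PTGES3, beside 14.4% higher and 13.9% lower of all genes, and its median change was 0.06. The counts of 5 and 4 of 26 are near these shares. These names were chosen after their values were seen. The inducible HSP70 genes HSPA1A and HSPA1B had no measured probe set of their own, and of 10 HSP70 genes outside the ER 3 were measured, with 0 called.

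HSPB8, the small heat shock protein that works in a complex with BAG3, fell. It gave 1869 and 1581 with siIGF2R in BOKU, against 4706 and 4638 with siCtrl, and 742 and 903 with siIGF2R in SKG-I, against 1952 and 1982 with siCtrl. Every siIGF2R array was below every siCtrl array within a line, and the change was -1.35 on the log2 scale (SE 0.19, adjusted p = 0.03 in limma). HSPB8 was the 1 gene called among 14 measured genes for BAG3 and aggregate handling, whose median change was -0.21. At an unadjusted p under 0.05 that list had 5 lower, HSPB8, SQSTM1, STUB1, VCP and TAX1BP1, and 1 higher, UBQLN1, of 14, beside 13.9% lower and 14.4% higher of all genes. These genes were named after their values were seen. The fitted value was -0.72 for SQSTM1, the autophagy receptor p62, and -0.65 for STUB1, the ubiquitin ligase that works with HSP70 and HSP90, with adjusted p = 0.0652 and 0.0663.

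In the mitochondrial list, 1 of 18 measured genes was called higher and 0 lower. CLPP, the proteolytic subunit of the matrix protease ClpXP, gave 1902 and 2208 with siIGF2R in BOKU, against 696 and 627 with siCtrl, and 1418 and 1325 with siIGF2R in SKG-I, against 624 and 709 with siCtrl. The rise was 1.34 on the log2 scale (SE 0.23, adjusted p = 0.0434), and the call was lost without the siCtrl array 2 of BOKU (adjusted p = 0.054) and without the siCtrl array 1 of SKG-I (adjusted p = 0.0504). CLPB, the mitochondrial disaggregase, gave 168 and 243 with siIGF2R in BOKU, against 488 and 765 with siCtrl, and 124 and 113 with siIGF2R in SKG-I, against 389 and 382 with siCtrl. Its change of -1.65 exceeded 2-fold in each line and missed the threshold (SE 0.32, adjusted p = 0.0521). CLPB was measured only through the siCtrl array 2 of BOKU, which favours a fall. In SKG-I all its arrays lay below the signal limit.

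Of 18 measured genes for HSP90 and its cochaperones 0 were called by their brightest probe sets, and this holds for HSP90AA1 too. At an unadjusted p under 0.05 this list had 5 higher and 4 lower, beside 14.4% and 13.9% of all genes. CDC37, named after its values were seen, had changes of -1.66 in BOKU and -0.87 in SKG-I. Over both lines its change was -1.26 (SE 0.25, adjusted p = 0.054 in limma). SGTA, a cochaperone that handles tail-anchored membrane proteins, was the 1 gene past 2-fold in each line, with 663 and 685 with siIGF2R in BOKU, against 265 and 315 with siCtrl, and 435 and 548 with siIGF2R in SKG-I, against 259 and 217 with siCtrl (change 1.13, SE 0.27, adjusted p = 0.0741). SGTA was measured only through siIGF2R arrays, which favours a rise, and all its siCtrl arrays lay below the signal limit. In the list of the cytosolic chaperonin TRiC and its partner prefoldin 1 of 13 measured genes was called, the prefoldin subunit PFDN4. It gave 2184 and 1925 with siIGF2R in BOKU, against 4951 and 4023 with siCtrl, and 4014 and 3890 with siIGF2R in SKG-I, against 7124 and 6265 with siCtrl. By this probe set, 205361_s_at, it fell by 0.94 on the log2 scale (SE 0.18, adjusted p = 0.0491), and 6 of 20 alternatives called it, with adjusted p = 0.0266 to 1. Another measured PFDN4 probe set, 205362_s_at, gave 242 and 159 with siIGF2R in BOKU, against 329 and 228 with siCtrl. In SKG-I it gave 505 and 351 with siIGF2R, against 688 and 384 with siCtrl, so that its arrays overlapped in both lines. No gene was called among 12 nucleotide exchange factors, 23 J-domain proteins or 5 heat shock factors and their regulators.

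**Figure D5:**
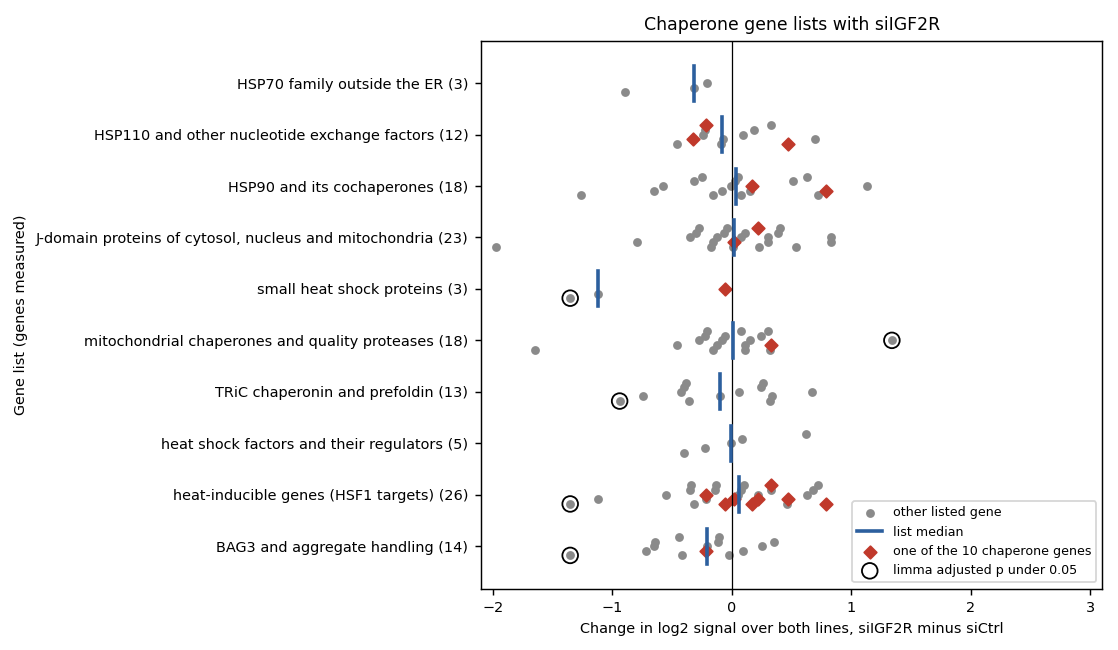
Change in log2 signal over both lines, siIGF2R minus siCtrl (x axis), of the measured genes of 10 chaperone lists (y axis, number of genes in brackets); each point is a gene by its brightest probe set, diamonds are the members, blue bars the list medians and open circles genes called by limma. HSPB8 stands in 3 lists, and the medians lie between -0.32 and 0.06 except that of the 3 small heat shock proteins, -1.12.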

How the data were processed

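RNA of 4 transfected cell samples (BOKU and SKG-I, each with siIGF2R or siCtrl) was extracted with ISOGEN, labelled as biotinylated cRNA and hybridized in duplicate to 8 Affymetrix U133 Plus 2.0 arrays. The authors deposited MAS5 signal intensity values per probe set, on a linear scale, background-subtracted and scaled per array. The methods name a mean of 1000, while the deposited arrays share a trimmed mean of about 500. The number of RNA samples, 4 in all, limits the precision, since duplicate arrays share an RNA sample.

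Genes were named from the platform annotation, updated through RefSeq. Control probe sets (62) and probe sets under 500 on all 8 arrays were left out, which kept 16517 of 54675, of which 14544 had 1 gene, 765 several and 1208 none. Signals were averaged on the log2 scale over duplicates, since these share an RNA sample, and 4 values per probe set were fitted with limma 3.58.1 in R 4.3.3, with siRNA and cell line as terms and a variance trend. The fit had 1 residual degree of freedom and 4.82 prior ones, so p-values rest largely on the spread shared across probe sets. P-values were adjusted by Benjamini-Hochberg over all measured probe sets, with a threshold of 0.05. Changes within 1 line were described by a 2-fold limit without a test. The fit was also run on simulated data, with spreads drawn from those the fit itself had estimated and the same siRNA effect in both lines. Such data could not test these assumptions.

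The text names IGF2R, HSF1, every single-gene probe set of the members and, from each gene list, all genes called by limma and up to 5 past 2-fold in each line. Cell type markers came from marker lists. Other genes given with values are said to be chosen after their values were seen. The members and lists were chosen with earlier results of these data known. Promoter windows came from RefSeq (GRCh38.p14). Alternatives covered filters, scaling, the log scale, the variance trend, the blocks, the methods' t-test and leaving out each array.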

Additional observations from a re-analysis of the deposited data

Results flagged for a closer look

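DNAJB1, by the probe set 200666_s_at, moved in opposite directions in the 2 lines on every array. With siIGF2R its change was -0.22 in BOKU and 0.26 in SKG-I, so that the BOKU change minus the SKG-I change was -0.48 on the log2 scale. The other probe set of the gene, 200664_s_at, was lower in both lines, with changes of -0.53 in BOKU and -0.18 in SKG-I. Changes of opposite sign in the lines occurred in 5 of 21 member probe sets, beside 29% of all measured ones. Opposite directions with no overlap of arrays in either line are a stricter rule, and its share over all probe sets was not counted. Nothing is therefore read from this flag. The difference between the lines was not tested, because 1 RNA sample per line and siRNA leaves no spread to test it with.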

How the results depend on the processing

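The cell lines are the only replicates, and 1 RNA sample per line and siRNA carries any difference between cultures. The count of member probe sets called higher with siIGF2R, 2, was 1 with no filter, with a limit of 1000, with median scaling, with arithmetic means of duplicates and on arrays scaled to a mean of 1000. It was 4 with 64 added to each signal and after subtracting the median change of each signal class, and 0 without the variance trend or without the cell line term. The scaling to 1000 and the signal classes were chosen after seeing the data. The rise of HSP90AA1 by 211968_s_at was called under 17 of 20 alternatives (adjusted p = 0.00747 to 1) and that by 210211_s_at under 8 of 20 (0.0223 to 1). HSPB8 was called under 18 of 20 (0.00853 to 1) and CLPP under 14 of 20 (0.0145 to 1).

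Over all probe sets, 363 higher and 346 lower became 655 and 575 with 64 added, and 0 and 0 without the variance trend (3865 at an unadjusted p under 0.05) or without the cell line term (625). A limit of 1000 gave 229 higher, and scaling to 1000 gave 212 lower. On leaving out each array these counts ran from 216 to 838 and from 233 to 759, lowest without the siCtrl array 2 of BOKU, and the members' count from 0 to 4. Between the lines, 4 members were called higher in BOKU without the variance trend, against 8. With a limit of 1.5-fold in each line 2 members were higher, beside 8.66% of all probe sets. Listed genes called higher and lower, 1 and 2, were 0 and 1 with all probe sets of a gene averaged, 1 and 0 with only probe sets without a suffix, 2 and 2 after quantile normalization and 3 and 3 after subtraction by signal class. The causes were not tested.

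Arrays of the same number share only the number, with correlations of their deviations of -0.0061 to 0.13 over 6 pairs. Treated as separate samples, the arrays gave 4269 higher and 3833 lower probe sets with siIGF2R, of which 10 and 5 were members. Between the lines they gave 5895 higher and 6295 lower in BOKU, of which 12 and 1 were members. With a replicate block they gave 3992 and 3609 with siIGF2R, of which 9 and 5 were members. Between the lines that block gave 5797 and 6181, of which again 12 and 1 were members. These fits take technical duplicates for replicates. The methods' t-test at their threshold, with 2-fold, called 0 members higher and 1 lower in BOKU, beside 6.34% and 4.34% of all probe sets, and 3 and 0 in SKG-I, beside 7.54% and 5.76%. After Benjamini-Hochberg adjustment it called 0 and 0 in BOKU (2.01% and 1.56% of all) and 2 and 0 in SKG-I (5.9% and 4.67% of all). That test too sets 2 technical arrays of 1 RNA sample against 2 of another.

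The signs that turned belong to values near 0, none of them called. With siIGF2R the value of HSPB1 was 0.036 after quantile normalization and 0.049 after subtraction by signal class, and that of DNAJB1 by 200666_s_at was -0.018 after median scaling and -0.025 to 0.059 on leaving out arrays. HSF1 ran from -0.056 to 0.22 on leaving out arrays. Between the lines, BOKU minus SKG-I, HSPD1 by 200806_s_at gave -0.093 after quantile normalization, -0.065 on arrays scaled to 1000 and -0.025 to 0.052 on leaving out arrays, and by 200807_s_at 0.0064 after median scaling and -0.14 to 0.075 on leaving out arrays. HSPA4 by 211015_s_at gave 0.016 after median scaling and -0.11 to 0.064 on leaving out arrays, and by 208814_at -0.032 on arrays scaled to 1000 and -0.047 to 0.14 on leaving out arrays. No other alternative turned a sign among the results tried.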

Other observations

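CRYAB, the small heat shock protein alphaB-crystallin, gave 438 and 347 with siIGF2R in BOKU, against 442 and 493 with siCtrl, and 465 and 428 with siIGF2R in SKG-I, against 1686 and 1866 with siCtrl. Its change by the probe set 209283_at was -0.26 in BOKU and -1.99 in SKG-I, and over both lines it did not pass the test (-1.12, adjusted p = 0.165 in limma). A dim HSPD1 probe set, 241716_at, gave 56.1 and 13.0 with siIGF2R in BOKU, against 9.13 and 11.9 with siCtrl, and 96.1 and 79.2 with siIGF2R in SKG-I, against 5.01 and 3.28 with siCtrl. It lay below the limit of 500 on every array and was not tested. Both were chosen after their values were seen.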
